A study of Mus musculus with 13 samples.

Results

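Microglia, the resident macrophages of the brain, were followed through 39 of their genes in the cortex of progranulin-deficient mice. Of these, 17 mark the homeostatic state (P2ry12 to Hpgds in the plot of fold changes) and 22 mark the disease-associated state (Trem2 to Mpeg1). The genes were taken by symbol from a list of known markers, complement and cathepsin genes aside, and all 39 were found among the 17562 genes measured. In healthy brain, homeostatic microglia depend on signals through the CSF1 receptor and the TGF-beta receptor and carry purinergic and chemokine receptors with which they survey neurons. Around plaques, dying cells and myelin debris they lower these genes and raise a disease-associated set. Completing this switch, though not each step of it, requires the lipid-sensing receptor TREM2 and its adaptor TYROBP. Progranulin is a secreted glycoprotein that microglia produce in quantity and that also acts in the lysosome, and its complete loss in mice is known for activated microglia.

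Cortical RNA came from 13 male mice of 3 genotypes, all aged 18 months. The groups were 5 wild-type mice (Grn+/+), 4 mice with a single working Grn copy (Grn+/-) and 4 mice without mouse Grn that carried a human progranulin transgene (Grn-/-;GRNtg). The strain, the Grn allele, the transgene's promoter and copy number, and any litter or batch are not given in the sources used. The tables hold the authors' fitted comparisons and no values per mouse, so the spread between mice enters only through the standard error (SE) of each fold change. In whole cortex, fewer microglia and less RNA per microglial cell cannot be told apart.

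Fold changes are on the log2 scale of the authors' deposited tables, and a gene was counted as called where its deposited adjusted p, from the Wald test of DESeq2 with Benjamini-Hochberg adjustment over the table's genes, was under 0.05. Mouse Grn itself had a mean normalized count of 784 and fell in Grn+/- by 0.65 ± 0.077 (SE) to 63.6% of wild type in the authors' deposited table (adjusted p = 2.9e-13). It fell by 2.02 ± 0.081 in Grn-/-;GRNtg, to 24.7% of wild type, by the authors' deposited table (adjusted p = 5.8e-131), so the 3 genotypes stood in the order of their labels while reads were still assigned to Grn in the group labelled as lacking it. Whether those reads came from the mouse allele or from the human transgene was not tested. Genes of the tables summed to a mean of 18113972 normalized counts per library. The median log2 fold change over all genes was 0.01, 0.01 and 0.00 in the authors' deposited tables, in the order Grn+/- and Grn-/-;GRNtg each against wild type, then the mutants against each other.

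All 17 homeostatic genes were measured in each comparison. Of the disease-associated genes, 15 stood in the table of Grn+/- against wild type, 20 in that of Grn-/-;GRNtg against wild type and all 22 in the direct table of the mutants. The tables begin at mean normalized counts of 24.7, 6.83 and 0.523, and the 7 genes absent from the first were those with the fewest reads: Cst7 at 3.62, Clec7a at 5.99, Lgals3 at 9.63, Itgax at 10.3, Ch25h at 12.3, Ccl6 at 17.2 and, above these, Cd52, per the authors' deposited table. Cst7 and Clec7a, a cystatin and the Dectin receptor that are among the strongest markers of the disease-associated state, could therefore be compared between the mutants only.

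Divided by exon length, the members spanned a wide range of levels. Apoe, the lipid carrier that astrocytes also make, stood alone at 18080.3 mean normalized counts per kb of exon, computed from the authors' deposited table. Csf1r, the growth factor receptor on which microglia depend for survival, followed at 371 per kb and Tyrobp, the signalling adaptor of TREM2, at 360.0 per kb, from the authors' deposited table. The disease-associated genes Fabp5 at 276, Axl at 243 and Cd63 at 241 counts per kb came next, then the homeostatic genes Tmem119 at 227 and Cx3cr1 at 224, with Cd9 at 222, Fcrls at 183 and P2ry12 at 157, from the authors' deposited table. Hpgds and Cd33 were the lowest homeostatic genes at 14.8 and 12.5 per kb, from the authors' deposited table. The lowest members of all were Cst7 at 3.67, Clec7a at 2.27 and Itgax at 2.14 per kb, again from the authors' deposited table. These levels are means over all 13 libraries with no spread, so neighbours in the order cannot be said to differ.

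**Figure D1:**
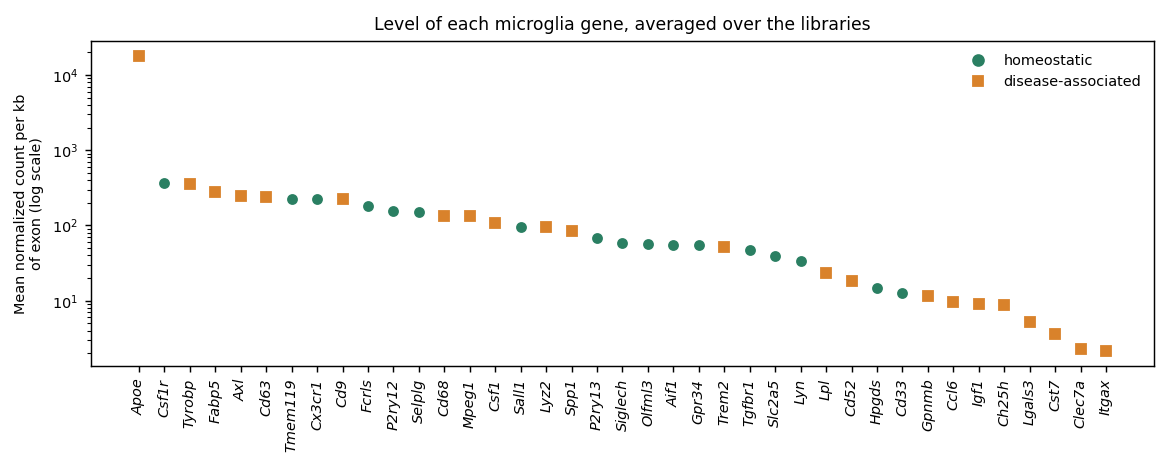
Level of each of the 39 microglia genes as the authors' mean normalized count per kb of exon (y axis, log scale), ordered from high to low along the x axis, with homeostatic genes as green circles and disease-associated genes as orange squares. Apoe lies alone at the top at 18080.3 per kb, homeostatic genes range from Csf1r at 371 to Cd33 at 12.5 per kb, and the 8 lowest genes are all disease-associated.

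The promoters of the members were read for 3 short motifs, shown here because the members are known as targets of a common set of myeloid factors. RefSeq (GRCm38.p6) gave a promoter for 30 of the 39 genes, and the 250 bases before the transcription start were searched on both strands for the core bound by PU.1, the lineage factor of macrophages (GAGGAA), for the E-box core bound by the lysosomal MITF and TFE factors (CACGTG), and for the AP-1 element (TGACTCA). The letters GAGGAA or their complement stood in 13 of the 30 (43.3%), in 5 of 12 homeostatic and 8 of 18 disease-associated promoters, against 23.1% of all 27025 promoters and 22.6% of those of measured genes. CACGTG stood in 2 of 30 (6.67%; 6.05% of all promoters), those of P2ry12 and Siglech, and TGACTCA in 2 of 30 (6.67%; 4.43% of all), those of Cd68 and Itgax. No match of one motif overlapped a match of another in the members. Below are Tgfbr1, the member called against wild type (plus strand, chr4:47352972-47353221), the neighbours P2ry12 and P2ry13 (minus strand, chr3:59262986-59263235 and chr3:59210883-59211132), Trem2 (plus strand, chr17:48346151-48346400) and Axl (minus strand, chr7:25788734-25788983). Each runs 5′ to 3′ in the direction of its gene and ends at the base before the start, with motif letters in capitals: CACGTG in P2ry12, GAGGAA in P2ry13 and its complement on the other strand in Trem2 and Axl.
Tgfbr1: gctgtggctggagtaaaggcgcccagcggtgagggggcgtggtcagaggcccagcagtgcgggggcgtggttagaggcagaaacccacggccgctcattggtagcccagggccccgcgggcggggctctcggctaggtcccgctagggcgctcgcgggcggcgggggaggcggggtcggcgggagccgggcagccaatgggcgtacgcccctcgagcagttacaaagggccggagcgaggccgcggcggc
P2ry12: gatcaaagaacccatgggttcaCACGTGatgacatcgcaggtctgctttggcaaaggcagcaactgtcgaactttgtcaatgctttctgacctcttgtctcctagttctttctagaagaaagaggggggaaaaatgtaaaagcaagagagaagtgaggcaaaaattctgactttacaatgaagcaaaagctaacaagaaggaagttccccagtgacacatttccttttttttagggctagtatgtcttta
P2ry13: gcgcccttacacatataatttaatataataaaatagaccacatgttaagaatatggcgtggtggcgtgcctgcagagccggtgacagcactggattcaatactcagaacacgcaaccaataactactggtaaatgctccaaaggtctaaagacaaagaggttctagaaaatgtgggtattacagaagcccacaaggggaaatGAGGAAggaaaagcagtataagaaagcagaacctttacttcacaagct
Trem2: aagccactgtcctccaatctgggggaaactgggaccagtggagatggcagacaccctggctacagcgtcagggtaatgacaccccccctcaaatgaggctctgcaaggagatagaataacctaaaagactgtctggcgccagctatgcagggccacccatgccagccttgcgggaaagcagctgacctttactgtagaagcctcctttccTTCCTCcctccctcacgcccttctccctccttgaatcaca
Axl: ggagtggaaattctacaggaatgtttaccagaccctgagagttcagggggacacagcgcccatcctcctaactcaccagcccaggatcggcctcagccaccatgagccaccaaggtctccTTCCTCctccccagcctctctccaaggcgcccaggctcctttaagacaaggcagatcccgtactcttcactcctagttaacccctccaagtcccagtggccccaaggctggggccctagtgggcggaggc
The Tgfbr1 window, 74.8% G and C, holds none of the 3 motifs, which says only that these letters are not in it.

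Most homeostatic genes had small negative fold changes in Grn+/- cortex, and 1 of them was called. Tgfbr1, the signalling chain of the TGF-beta receptor, fell, and none rose. That is 1 of 17 genes called (0 higher and 1 lower), where 6.80% of all 13482 genes were called (2.29% higher and 4.51% lower) in the authors' deposited table. At an unadjusted p under 0.05 there were 2 of 17, both lower, against 20.2% of all genes (9.09% higher and 11.1% lower) in the authors' deposited table. Values were negative for 12 and positive for 5 of the 17, with a median of -0.10, where the median of all genes was 0.01 and 47.6% of them were negative in the authors' deposited table.

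In Grn-/-;GRNtg cortex none of the 17 was called, where 4.87% of all 14961 genes were (1.81% higher and 3.05% lower) by the Wald test of the authors' deposited table. At an unadjusted p under 0.05 there were 3 of 17, with 1 higher and 2 lower, against 20.5% of all genes (10.1% higher and 10.4% lower) in the authors' deposited table. Values were negative for 13 and positive for 4, with a median of -0.05, where 48.7% of all genes were negative in the authors' deposited table. Both comparisons use the same 5 wild-type mice, so chance values of those mice enter both. With the authors' mean counts divided among genotypes by their fold changes, the summed level of the 17 genes was 93.9% of wild type in Grn+/- and 96.1% in Grn-/-;GRNtg.

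**Figure D2:**
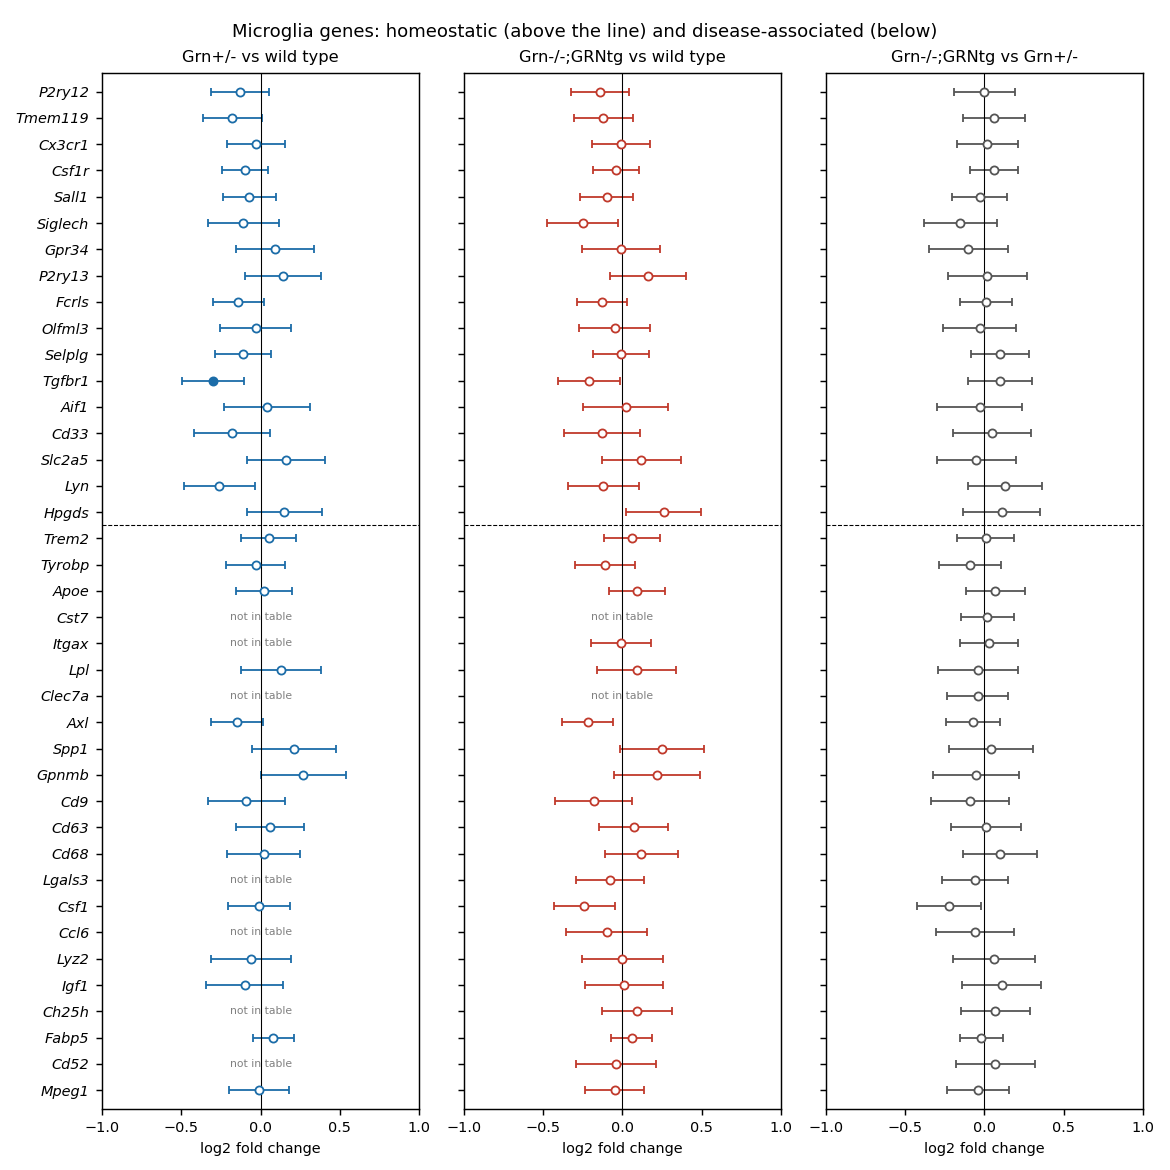
Log2 fold change (x axis) of each of the 39 genes (y axis) in the 3 comparisons of the authors' deposited tables, with bars over the 95% interval; filled points passed an adjusted p under 0.05 and open points did not. Homeostatic genes stand above the broken line, and Tgfbr1 in Grn+/- (-0.30) is the only filled point.

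Tgfbr1 lies on chromosome 4 at 47353222 to 47414931 on the plus strand (GRCm38, GENCODE M21). Its fitted level was 347 normalized counts in wild type, 281 in Grn+/- and 300.5 in Grn-/-;GRNtg, from the authors' deposited tables. Its fold change in Grn+/- was -0.30 ± 0.099 (SE), or 81.0% of wild type with a 95% interval of 70.8 to 92.6, with adjusted p = 0.037 by the authors' deposited table. In Grn-/-;GRNtg it was -0.21 ± 0.099, or 86.7% of wild type, with adjusted p = 0.21 by the authors' deposited table, and the mutants differed by 0.10 ± 0.103 (adjusted p = 0.87). Thus Tgfbr1 passed in Grn+/- only, and no difference between the mutants was detected. The call was lost at an adjusted p under 0.01, under Benjamini-Yekutieli adjustment, and when the table's statistics were divided by their robust spread. Brain cells other than microglia also express Tgfbr1.

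Among the 19 other genes of the TGF-beta pathway examined, 3 fell and 0 rose in Grn+/-, where 4.51% of all genes fell and 2.29% rose in the authors' deposited table. This list was chosen with earlier results of these data known, so its counts are not independent support for the Tgfbr1 call. At an unadjusted p under 0.05, 6 were lower in Grn+/- and 7 in Grn-/-;GRNtg and none higher, against 11.1% and 10.4% of all genes lower, in the authors' deposited tables. Itgb8, the integrin chain with which neighbouring cells release active TGF-beta, fell by 0.63 ± 0.137 (adjusted p = 0.00046), to 64.4% of wild type, in the authors' deposited table. Smad3, which carries the receptor's signal to the nucleus, fell by 0.23 ± 0.074 (adjusted p = 0.031), and Ski, a repressor of Smad complexes, fell by 0.16 ± 0.053 (adjusted p = 0.04) in the authors' deposited table. The calls of Smad3 and Ski in Grn+/- were lost at an adjusted p under 0.01 and with a minimum absolute change of 0.3. No pathway call, Itgb8 included, held with the robust spread. In Grn-/-;GRNtg, Itgb8 alone was called (4.87% of all genes were) and fell by 0.44 ± 0.137 (adjusted p = 0.034), by the authors' deposited table. That Itgb8 call was lost at an adjusted p under 0.01. Smad3 was at 0.05 in Grn-/-;GRNtg in the authors' deposited table. It was the single pathway gene to differ between the mutants, 0.28 ± 0.077 higher in Grn-/-;GRNtg than in Grn+/- (adjusted p = 0.047), by the authors' deposited table. That Smad3 call was lost when p-values were adjusted over the genes common to the 3 tables. It was also lost at an adjusted p under 0.01, under Benjamini-Yekutieli adjustment, with the robust spread and with a minimum absolute change of 0.3. The ligand gene Tgfb1 was at -0.22 ± 0.111 in Grn+/- (adjusted p = 0.23), and Nrros, which presents latent TGF-beta on microglia, was at 0.15 (adjusted p = 0.56), by the authors' deposited table. The pathway's median was -0.07 in Grn+/- and -0.13 in Grn-/-;GRNtg, from the authors' deposited tables. Astrocytes and endothelial cells also express most of these genes. Some astrocyte markers were called in both mutants, and some endothelial markers in Grn-/-;GRNtg only. Of 15 astrocyte markers, 4 fell in Grn+/- (median -0.11) and 2 in Grn-/-;GRNtg (median -0.15), and of 12 endothelial markers 0 were called in Grn+/- and 4 fell in Grn-/-;GRNtg (median -0.25), in the authors' deposited tables. Of all genes, 4.51% fell in Grn+/- and 3.05% in Grn-/-;GRNtg. The part of these cells in the result for Tgfbr1 and its pathway was not tested.

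**Figure D3:**
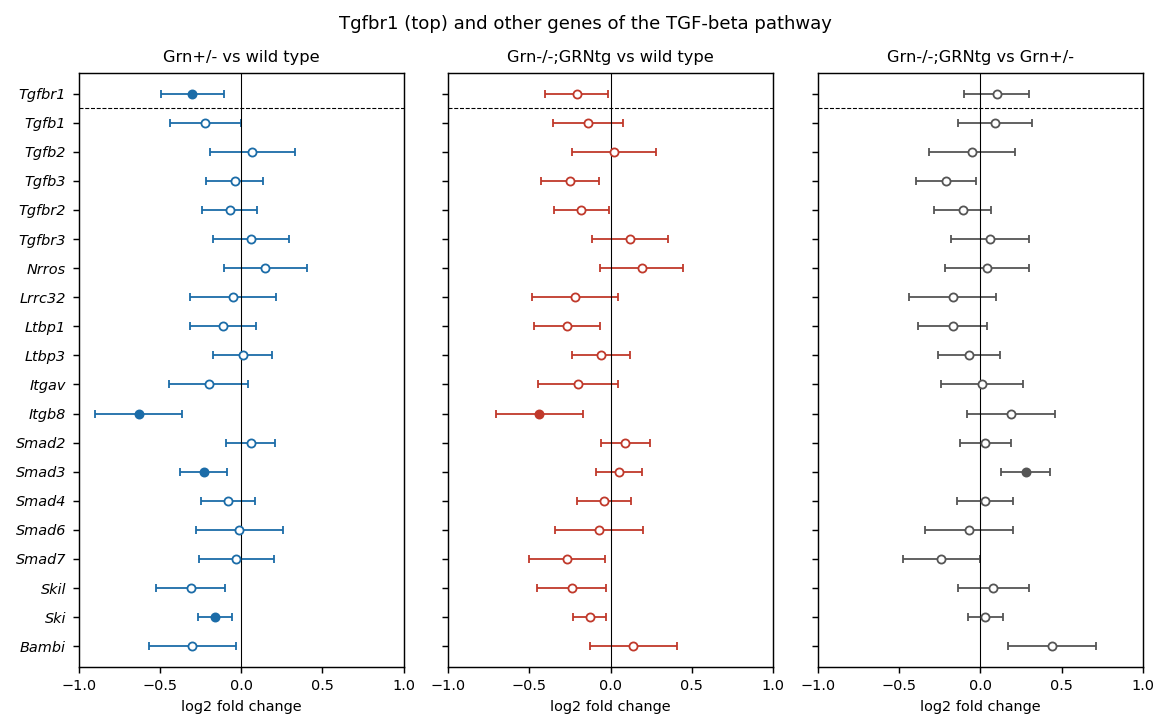
Log2 fold change (x axis) of Tgfbr1 (top row) and 19 other TGF-beta pathway genes (y axis) in the 3 comparisons of the authors' deposited tables, with bars over the 95% interval and filled points where the adjusted p was under 0.05. Itgb8 is filled on the left of 0 in both mutants (-0.63 and -0.44), while Smad3 is lower in Grn+/- only and filled on the right in the direct comparison of the mutants (0.28).

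The other growth factor and chemokine receptors were close to wild type. Csf1r was at -0.10 ± 0.074 in Grn+/- and -0.04 ± 0.074 in Grn-/-;GRNtg in the authors' deposited tables, with fitted levels of 2206, 2059 and 2144 normalized counts in wild type, Grn+/- and Grn-/-;GRNtg. Of the exonic sequence of Csf1r, 14.3% of 50-base windows recur in Hmgxb3, which overlaps it on the other strand. Cx3cr1, the receptor for the neuronal chemokine fractalkine, was at -0.03 ± 0.093 and -0.01 ± 0.093 in the authors' deposited tables (1017, 996 and 1013 normalized counts). Among the purinergic receptors, P2ry12, which guides process movement towards ATP and ADP, was at -0.13 and -0.14 (SE 0.094 in both) in the authors' deposited tables. P2ry13, a related ADP receptor whose gene lies 5.39 kb away on chromosome 3, was at 0.14 and 0.16 (SE 0.123 in both) in the authors' deposited tables. These neighbours thus had opposite signs in both mutants, but none of the 4 values passed the test, with adjusted p from 0.41 to 0.58 in the authors' deposited tables. The lysophosphatidylserine receptor gene Gpr34 was at 0.09 and -0.01 in the authors' deposited tables.

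Surface proteins of homeostatic microglia lay mostly below wild type without passing. Tmem119, a microglial surface marker, was at -0.18 ± 0.095 in Grn+/- (p = 0.055, adjusted p = 0.26) and -0.12 ± 0.095 in Grn-/-;GRNtg in the authors' deposited tables, and its neighbour Selplg, the selectin ligand gene 18.0 kb away on chromosome 5, was at -0.11 and -0.01. Siglech, a sialic acid binding lectin, was the lowest homeostatic gene of Grn-/-;GRNtg at -0.25 ± 0.114 (p = 0.027, adjusted p = 0.18), with fitted levels of 215, 199.6 and 180.4 normalized counts in wild type, Grn+/- and Grn-/-;GRNtg, from the authors' deposited tables. Cd33, another sialic acid binding lectin, was at -0.18 and -0.13, and Fcrls at -0.14 ± 0.081 and -0.13 ± 0.081, in the authors' deposited tables. The fructose transporter gene Slc2a5 was on the other side at 0.16 ± 0.126 and 0.12 ± 0.126, the highest homeostatic value of Grn+/-, in the authors' deposited tables. Summed over these 6 genes, the fitted level was 92.0% of wild type in Grn+/- and 94.2% in Grn-/-;GRNtg, from the authors' deposited tables.

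The remaining homeostatic genes went both ways. Lyn, a Src family kinase, had the lowest value after Tgfbr1 in Grn+/-, at -0.26 ± 0.115 (p = 0.025, adjusted p = 0.17), and was at -0.12 in Grn-/-;GRNtg, in the authors' deposited tables. Of its exonic sequence, 18.3% of 50-base windows recur in other genes (Gm11787 and Gm26857), so its count could depend on how shared reads were assigned. Hpgds, the prostaglandin D synthase of microglia, was the highest homeostatic gene of Grn-/-;GRNtg at 0.26 ± 0.121 (p = 0.032, adjusted p = 0.19) and was at 0.15 ± 0.121 in Grn+/- in the authors' deposited tables, with fitted levels of 87.0, 96.5 and 104 normalized counts in wild type, Grn+/- and Grn-/-;GRNtg. Sall1, the transcription factor that holds microglial identity, was at -0.07 and -0.10, Olfml3, which encodes a secreted glycoprotein, at -0.03 and -0.05, and Aif1, which encodes the marker IBA1, at 0.04 and 0.02, in the authors' deposited tables.

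No measured disease-associated gene was called in either direction in either mutant. In Grn+/-, 0 of the 15 measured passed the Wald test of the authors' deposited table and 1 had an unadjusted p under 0.05, where 6.80% and 20.2% of all genes did, with 8 positive and 7 negative values and a median of 0.02. In Grn-/-;GRNtg, 0 of 20 passed in the authors' deposited table and 2 had an unadjusted p under 0.05, where 4.87% and 20.5% of all genes did, with 11 positive and 9 negative values and a median of 0.01. The summed fitted level of the 15 genes was 101% of wild type in Grn+/- and 105% in Grn-/-;GRNtg, and without Apoe, which makes up most of it, 99.5% and 96.4%, from the authors' deposited tables.

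The TREM2 receptor and its adaptor were near wild type. Trem2 was at 0.05 ± 0.089 in Grn+/- and 0.06 ± 0.089 in Grn-/-;GRNtg, with fitted levels of 249, 258 and 260.0 normalized counts, in the authors' deposited tables. The upper ends of its 95% intervals lay at 117% and 118% of wild type, from the authors' deposited tables. Tyrobp was at -0.03 ± 0.095 and -0.11 ± 0.095 (247, 243 and 229 normalized counts) in the authors' deposited tables. Of 15 signalling partners and sheddases of TREM2, 11 were measured in Grn+/- and only Adam17, a protease that cuts TREM2 and many other surface proteins, was called, at -0.29 ± 0.097 (adjusted p = 0.041) by the authors' deposited table, where 6.80% of all genes were called. That call was lost at an adjusted p under 0.01, under Benjamini-Yekutieli adjustment, with the robust spread and with a minimum absolute change of 0.3. Adam17 was at -0.27 in Grn-/-;GRNtg (adjusted p = 0.08), where 0 of 13 partners were called and 3 had an unadjusted p under 0.05, in the authors' deposited table. Of all genes, 4.87% were called there and 20.5% had an unadjusted p under 0.05.

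Axl, a receptor for phosphatidylserine on dying cells, came closest to a call among the disease-associated genes, and in the downward direction. Its fitted level was 1323 normalized counts in wild type, 1189.5 in Grn+/- and 1133 in Grn-/-;GRNtg, from the authors' deposited tables. The fold change was -0.22 ± 0.083 in Grn-/-;GRNtg, or 85.6% of wild type (76.5 to 95.8; p = 0.0068, adjusted p = 0.084), and -0.15 ± 0.083 in Grn+/- (adjusted p = 0.28), in the authors' deposited tables. Axl is also made by astrocytes and endothelial cells. Of their markers, 2 of 15 and 4 of 12 fell in Grn-/-;GRNtg, where 3.05% of all genes fell. The part of these cells in the Axl value was not tested. Itgax, the integrin CD11c, was at -0.01 ± 0.096 in Grn-/-;GRNtg by the authors' deposited table, with a mean normalized count of 10.3.

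Lipid-handling genes had small positive values in both mutants, none of which passed. Apoe was at 0.02 ± 0.090 and 0.09 ± 0.090 in Grn+/- and Grn-/-;GRNtg in the authors' deposited tables. Lpl, which frees fatty acids from lipoproteins, was at 0.13 and 0.09 (SE 0.128 in both), and Ch25h, which hydroxylates cholesterol, was at 0.09 ± 0.113 in Grn-/-;GRNtg, in the authors' deposited tables. Fabp5, a fatty acid carrier, had the smallest SE of all members at 0.066 and fold changes of 0.08 and 0.06, so that its 95% intervals reached 115% and 114% of wild type in the authors' deposited tables.

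Of the secreted factors in Grn-/-;GRNtg, Spp1 was the highest and Csf1 the lowest, and neither passed. Spp1, the matrix protein osteopontin, was at 0.21 ± 0.136 in Grn+/- and 0.25 ± 0.136 in Grn-/-;GRNtg (adjusted p = 0.4 and 0.28), with fitted levels of 126, 146 and 149.9 normalized counts, in the authors' deposited tables. Spp1 shares 11.6% of its 50-base windows with Gm42793, which overlaps it on the same strand. Csf1, a ligand of the CSF1 receptor that astrocytes and neurons also make, was at -0.01 ± 0.099 in Grn+/- and -0.24 ± 0.099 in Grn-/-;GRNtg (p = 0.017, adjusted p = 0.14) by the authors' deposited tables. Its fitted levels were 605, 599.5 and 513 normalized counts in wild type, Grn+/- and Grn-/-;GRNtg, from the authors' deposited tables. The growth factor gene Igf1 was at -0.10 and 0.01, and the chemokine gene Ccl6 at -0.10 ± 0.129 in Grn-/-;GRNtg, in the authors' deposited tables.

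Among the tetraspanin and lysosomal membrane genes, Gpnmb had the highest value. This glycoprotein of the lysosome and cell surface, known to accumulate in progranulin-deficient brain, was at 0.27 ± 0.138 in Grn+/- (p = 0.048, adjusted p = 0.24) and 0.22 ± 0.138 in Grn-/-;GRNtg (adjusted p = 0.36) by the authors' deposited tables. Its fitted levels of 66.8, 80.7 and 77.7 normalized counts were the lowest among the members present in all 3 tables, and its SE stood at the ceiling of 0.138 that all genes share, from the authors' deposited tables. Cd68, a lysosomal glycoprotein of phagocytes, was at 0.02 and 0.12, Cd63 at 0.06 and 0.07, and Cd9 at -0.09 and -0.18, in the authors' deposited tables. Cd63 shares 11.1% of its 50-base windows, chiefly with its pseudogene Cd63-ps, and Cd9 shares 14.4%, chiefly with the antisense gene Gm26728.

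The phagocyte effector genes were near wild type as well. Mpeg1, which encodes a pore-forming protein of the perforin family, was at -0.01 and -0.05, and Lyz2, a lysozyme, was at -0.06 and 0.00, in the authors' deposited tables. Lyz2 shares 15.4% of its windows with Lyz1. At low counts, the galectin gene Lgals3 was at -0.08 ± 0.109 and Cd52, a small glycoprotein of leukocytes, at -0.04 ± 0.129 in Grn-/-;GRNtg in the authors' deposited table.

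Compared directly between the mutants, none of the 39 genes passed the threshold. None of 17 homeostatic and 0 of 22 disease-associated genes were called, where 0.467% of all 17562 genes were (0.319% higher and 0.148% lower in Grn-/-;GRNtg), in the authors' deposited table. At an unadjusted p under 0.05 there were 0 homeostatic genes and 1 disease-associated gene, against 8.99% of all genes (5.14% higher and 3.85% lower), in the authors' deposited table. That gene was Csf1, at -0.22 ± 0.103 (p = 0.029, adjusted p = 0.47), or 85.6% of its level in Grn+/- with a 95% interval of 74.4 to 98.5, in the authors' deposited table. Medians were 0.02 for the homeostatic and -0.01 for the disease-associated genes, where that of all genes was 0.00, in the authors' deposited table. Siglech, the lowest homeostatic gene here, was at -0.15 ± 0.118, and Lyn, the highest, at 0.13 ± 0.119, in the authors' deposited table. Gpr34 and Slc2a5 followed at the low end with -0.10 and -0.05, and Hpgds at 0.11 with Tgfbr1 and Selplg at 0.10 at the high end, in the authors' deposited table. Among the disease-associated genes Tyrobp and Cd9 were at -0.09 and Axl at -0.07, and at the other end Igf1 was at 0.11, Cd68 at 0.10 and Apoe, Ch25h and Cd52 at 0.07, in the authors' deposited table. P2ry12 was at 0.00 ± 0.098 and Trem2 at 0.01 ± 0.092 in the authors' deposited table, with 95% intervals of 87.4 to 114 and 89.0 to 114 percent of Grn+/-. Cst7 was at 0.02 ± 0.085 and Clec7a at -0.04 ± 0.098, each near the floor of the counts, in the authors' deposited table.

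How small a change could have been called differed between members. The product of each gene's SE and the smallest called statistic gave a log2 fold change of 0.19 for Fabp5 to 0.40 for Aif1 in Grn+/-, with a median of 0.33 over the members, from the authors' deposited table. The corresponding medians were 0.34 in Grn-/-;GRNtg and 0.40 between the mutants, so smaller deposited fold changes of a typical member would not have been called. These limits are on the scale of the deposited fold changes. If those were drawn towards 0, the true changes needed for a call are larger. Several genes of both lists varied more than genes of like mean count in the authors' deposited Grn+/- table. Among the homeostatic genes, Olfml3 had an SE of 0.114 against a median of 0.093 and Cx3cr1 of 0.093 against 0.074, in the authors' deposited table. Cd9 had an SE of 0.124 against a median of 0.087, Cd63 of 0.110 against 0.075 and Lpl of 0.128 against 0.102, whereas Trem2 was more even at 0.089 against 0.101, in that table of the authors. In the authors' deposited table of Grn+/-, 24 of 32 members had an SE above the median at like count. All deposited SEs end at a ceiling of 0.138 and shrink again below mean counts of about 25, as estimates drawn towards 0 would. Small SEs of Cst7, Clec7a, Lgals3 or Itgax therefore do not mean precise measurements, and the values of Ch25h, Ccl6 and Cd52 may be drawn towards 0 too.

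**Figure D4:**
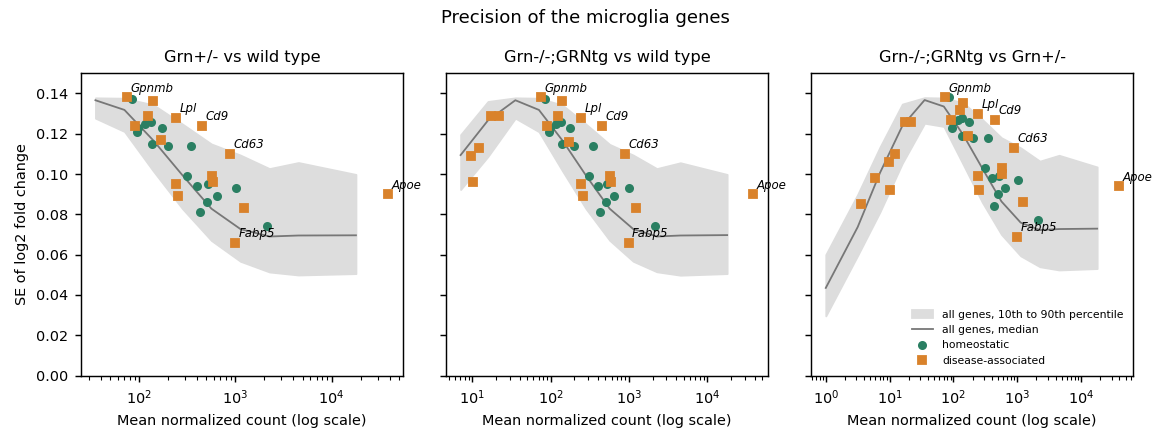
SE of the log2 fold change (y axis) against the mean normalized count (x axis, log scale) in the 3 comparisons of the authors' deposited tables; green circles are homeostatic genes, orange squares disease-associated genes, the line is the median of all genes and the grey band their 10th to 90th percentile. Cd63 (SE 0.110 in Grn+/-) and Cd9 (0.124) lie above the line and Fabp5 (0.066) below it, and SEs fall again at the low counts on the left of the right panel.

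Other genes expressed across microglia were also mostly near wild type. Of 25 further pan-microglial genes measured against wild type, such as Itgam and Ptprc, 1 was called in Grn+/- (6.80% of all genes were) and 0 in Grn-/-;GRNtg (4.87% of all genes), where 3 had an unadjusted p under 0.05 (20.5% of all genes), with medians of -0.01 and 0.00, in the authors' deposited tables. The called gene was Fcgr3, a low-affinity receptor for antibody, at -0.35 ± 0.113 (adjusted p = 0.035) in Grn+/- and at -0.30 (adjusted p = 0.085) in Grn-/-;GRNtg by the authors' deposited tables. Their summed fitted level was 97.1% of wild type in Grn+/- and 97.0% in Grn-/-;GRNtg, from the authors' deposited tables. Of 16 transcription factors of microglia, 1 was called in 1 comparison: Egr2, an early response factor that neurons also express, fell by 0.49 ± 0.120 in Grn-/-;GRNtg (adjusted p = 0.0039) by the authors' deposited table. In that comparison 4.87% of all genes were called. Spi1, which encodes PU.1, was at 0.23 ± 0.113 (adjusted p = 0.23) in Grn+/- and 0.05 ± 0.114 (adjusted p = 0.85) in Grn-/-;GRNtg in the authors' deposited tables. None of the measured ligands and inhibitory partners of the members' receptors passed (7 in Grn+/-, 9 in Grn-/-;GRNtg), with 2 and 1 at an unadjusted p under 0.05, in the authors' deposited tables. The shares of all genes were 6.80% and 4.87% called, and 20.2% and 20.5% at an unadjusted p under 0.05.

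Markers of other cells that a cortex sample can hold were read beside the members. Of 12 markers of blood monocytes and neutrophils, 8 stood in the authors' deposited table of most genes, 6 of them at mean normalized counts of 0.530 to 1.88, Ccr2 (1.88) and S100a9 (1.47) included. The others were Itgal at 34.2 and Ly6c1, which endothelial cells also express, at 429. Only these 2 were also measured against wild type, and neither was called in either mutant. In the direct comparison none of the 8 was called and 1 had an unadjusted p under 0.05, in the authors' deposited tables. Of all genes there, 0.467% were called and 8.99% had an unadjusted p under 0.05. The 12 markers of the brain's border macrophages had mean normalized counts from 3.65 (Ms4a7) to 630.4 (Stab1), with Mrc1 at 47.9, in the authors' deposited table. None of 3 measured was called in Grn+/-, and 1 of 9 in Grn-/-;GRNtg, Lyve1 at 0.39 ± 0.114 (adjusted p = 0.022) from 7.74 normalized counts on average, in the authors' deposited table. That level lies near the lowest of its table (6.83), so the SE does not mean a precise measurement. Lyve1 was not measured in Grn+/- against wild type, so its call could not be tried over common genes, nor at counts of at least 100. For the border macrophage markers and the next lists, 6.80% of all genes were called in Grn+/- and 4.87% in Grn-/-;GRNtg. All 15 oligodendrocyte markers were negative in both mutants, with medians of -0.15 and -0.23 and 0 and 1 called, and the leptomeningeal fibroblast markers were all positive, with medians of 0.17 over 11 and 0.21 over 12 genes and 0 and 1 called, in the authors' deposited tables. Summed fitted levels in Grn+/- and Grn-/-;GRNtg were 90.8% and 90.5% of wild type for astrocyte, 89.2% and 85.6% for oligodendrocyte, 90.7% and 83.8% for endothelial and 112% and 116% for leptomeningeal markers, from the authors' deposited tables. The homeostatic genes, at 93.9% and 96.1%, stood between these. The part of tissue composition in the members' values was not tested, and a batch or a dissection that differed between genotypes cannot be told apart from genotype here.

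**Figure D5:**
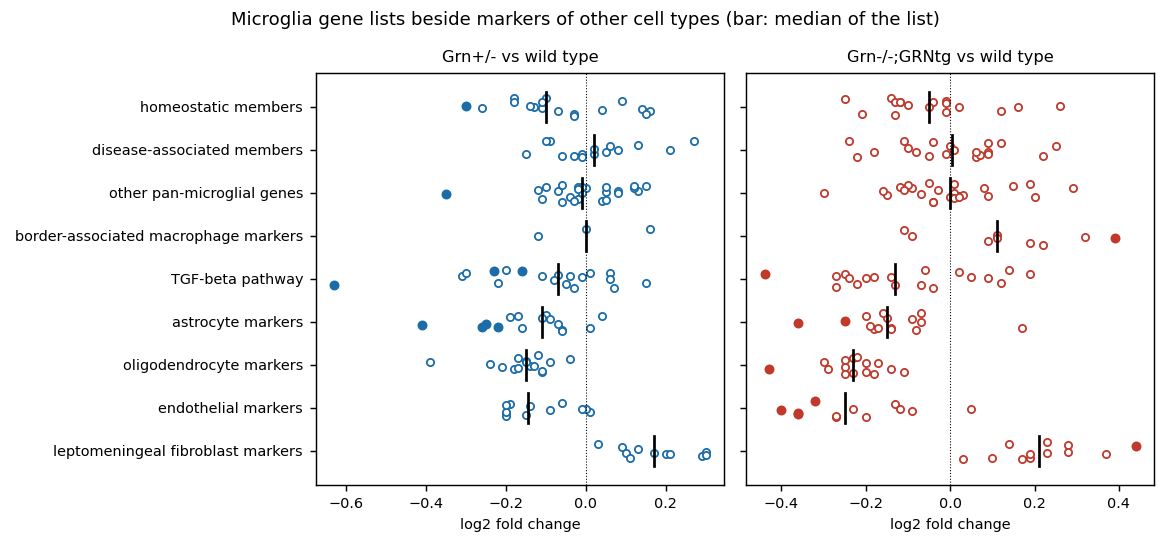
Log2 fold change (x axis) of single genes in the microglia lists and in lists of other pathways and cell types (y axis) for each mutant against wild type, from the authors' deposited tables; black bars are list medians and filled points passed an adjusted p under 0.05. Medians of the homeostatic genes lie at -0.10 and -0.05, those of oligodendrocyte markers at -0.15 and -0.23, and those of leptomeningeal markers at 0.17 and 0.21.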

How the data were processed

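Cortical RNA of 13 mice (5 wild type, 4 Grn+/-, 4 Grn-/-;GRNtg, by the genotype labels) was sequenced from directional libraries of total RNA, per the labels' protocols. The authors used R 4.1.2, DESeq2 1.34.0 and build mm10, per the submitters' processing notes; the aligner, read counter, strand setting, model and any prior on fold changes are not given in the sources used. Per the file headers, each of the authors' 3 deposited tables gives a mean normalized count (a signal averaged over libraries), a log2 fold change with its SE, the Wald statistic (a score, the fold change over its SE), a p-value and an adjusted p-value. Depth per mouse is unknown, and the number of reads behind a value enters only through its SE. Rows that name no gene (no_feature, 17.0% of mean normalized counts, and ambiguous, 0.606%) were left out of counts of genes; no_feature was at -0.22 (adjusted p = 0.0019) and -0.18 (adjusted p = 0.024) in Grn+/- and Grn-/-;GRNtg in the authors' deposited tables.

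The authors' test was used as deposited across all genes. Dividing fold change by SE returned the statistic within 0.001 in every row, and readjusting the deposited p-values by Benjamini-Hochberg returned the adjusted ones. Steps that count and readjust were tested on simulated data. Intervals are 95% normal intervals from the deposited SE. Fitted levels divide the mean normalized count among the genotypes, weighted by mice, in the ratio of the deposited fold changes. If the authors' fold changes were drawn towards 0, levels, percentages, intervals and the smallest callable changes are too, most at low counts. Positions and exon lengths are from GENCODE M21 (GRCm38) and promoters from RefSeq. Python 3.11.15, numpy 2.4.6, pandas 2.3.3, scipy 1.17.1 and matplotlib 3.10.9 were used. Nothing in the labels says how the mice were bred. The p-values set each fold change against its SE, which reflects the number of reads as well as the spread between these mice. No variation beyond these mice enters them.

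The members, gene lists and the rule for named genes were chosen with earlier results of these data known. The rule names Grn, each called member, each member with an unadjusted p under 0.05, the 3 highest and 3 lowest members of each list, the others within their role, and genes of other lists where called or as defining markers. The member list states 18 homeostatic genes, but the names from P2ry12 to Hpgds are 17; Trem2 was kept with the disease-associated genes. Alternatives were other thresholds, adjustments, filters, centring, weighting and list boundaries.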

Additional observations from a re-analysis of the deposited data

Results flagged for a closer look

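Smad3, a gene of the TGF-beta pathway, was the single gene of the members and that pathway for which the effects of the mutant genotypes differed by a test of the difference itself. It was 0.28 ± 0.077 (log2) higher in Grn-/-;GRNtg than in Grn+/- (adjusted p = 0.047) in the authors' deposited table, with a mean normalized count of 1900.4. The call was lost when p-values were adjusted over the genes common to all 3 tables. It was also lost at an adjusted p under 0.01, under Benjamini-Yekutieli adjustment, with the robust spread and with a minimum absolute change of 0.3.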

How the results depend on the processing

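The count of homeostatic genes called in Grn+/- fell from 1 to 0 at an adjusted p under 0.01, with Benjamini-Yekutieli adjustment and with statistics divided by their robust spread (1.49 in that table). The count of disease-associated genes called in Grn-/-;GRNtg went from 0 to 1 (Axl) at an adjusted p under 0.1. The other counts of members called stayed as reported under these settings, under adjustment over the genes common to all 3 tables, among genes with mean normalized counts of at least 100, with an absolute log2 fold change of at least 0.3 and with Trem2 counted as homeostatic. All 30 medians under other centring, weighting or membership moved by less than the members' median SE, and 4, all of disease-associated genes, had the opposite sign. Of 22 calls of single genes, members and others, 20 held over common genes, 20 at counts of at least 100, 14 with the minimum change, 4 at 0.01, 3 with Benjamini-Yekutieli and 0 with the robust spread. Over all genes, the 917, 728 and 82 calls became 357, 254 and 35 at 0.01, 1423, 1396 and 159 at 0.1, 263, 177 and 24 with Benjamini-Yekutieli, 6, 3 and 30 with the robust spread, and 499, 454 and 69 with the minimum change; the 82 became 43 over common genes and 36 at counts of at least 100. No paired analysis was possible because the tables hold no values per mouse, and for the same reason leaving out each replicate was not run.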
